A study of Mus musculus with 3 samples.

Results

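The 9 genes described here encode small leucine-rich proteoglycans: Dcn (decorin), Bgn (biglycan), Aspn (asporin), Lum (lumican), Fmod (fibromodulin), Prelp, Omd (osteomodulin), Ogn (osteoglycin) and Podn (podocan). They were taken by name, not by their values, as the rows of the count tables whose Entrez identifiers map to these symbols, and they are 9 of 36530 features. Single-cell RNA-seq had been run on 3 mouse melanomas: an untreated tumor, a tumor regressed under the BRAF inhibitor vemurafenib, and a tumor progressed under it. Per the study's methods, the C57BL/6 mice carried a Cre-activated mutant Braf allele (LSL.V600E) and Tyr.CreER, in part with the reporter Rosa26 LSL.tdTomato, so all 3 tumors, the untreated one included, carry the mutant Braf in the melanocyte lineage. The tyrosinase promoter drives Cre in that lineage and not in fibroblasts. Tumors had been induced by 4-OH tamoxifen on the skin of adult mice, and the labels do not give the age or sex of the 3 animals. Each group is 1 tumor, so there was no replicate and no test between tumors: intervals given below are 95% intervals that cover counting error only.

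Small leucine-rich proteoglycans are secreted by fibroblasts and other connective tissue cells. Their curved core of leucine-rich repeats binds fibrillar collagen and sets how fibrils assemble and how wide they grow, and most carry chondroitin, dermatan or keratan sulfate chains. Decorin and biglycan also bind TGF-β and cell-surface receptors, and in skin decorin is the leading proteoglycan of the dermis.

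In all 3 tumors 8 of the 9 genes were higher in stroma than in tumor or immune cells. Fmod was higher in stroma than in immune cells in each tumor. In the regressed and progressed tumors, however, its tumor-cell level was above the stromal one, with overlapping intervals. Most of the 9 genes' own UMIs (unique molecular identifiers, 1 per captured transcript) in stroma were decorin. Summed over the 10 clusters that the authors named Stroma1 to Stroma10, the 9 genes together reached 22813 counts per 1000000 UMIs (CPM) in the untreated tumor, 25111 in the regressed tumor and 24221 in the progressed tumor. Behind that near-constant sum the mix differed: biglycan was 4619 CPM in untreated stroma, 1036 in regressed stroma and 3045 in progressed stroma. Asporin and osteomodulin were higher in regressed stroma than in either other tumor, and fibromodulin was highest in untreated stroma. Osteoglycin marked 1 small cluster, Stroma8, in all 3 tumors.

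The 3 libraries held 12670 cells: 4095 untreated, 3726 regressed and 4849 progressed, with 12413268 to 26948940 UMIs in all and a median of 4496, 2658 and 4566 UMIs per cell. Of these, 2628, 1918 and 3422 cells lay in the Stroma clusters. The stroma label held against its markers: all 6 fibroblast markers (Col1a1, Col1a2, Col3a1, Pdgfra, Fap and Thy1) were found in the stroma of each tumor, at a summed 30374, 17166 and 27353 CPM. The regressed library stood apart. Of its stromal cells, 1537 were in Stroma10 and 310 in Stroma9, clusters with at most 7 cells of either other tumor, so tumor and cluster cannot be told apart there, and Stroma4 with 20 cells was the only cluster that gave it a comparison with at least 20 cells on both sides. Its summed erythroid markers (Hbb-bs, Hba-a1, Hbb-bt and Alas2) ran at 1565 to 1820 CPM in stromal, tumor and immune cells alike, against 36.9 to 45.5 in the untreated and at most 1.66 in the progressed tumor. Its stroma also held more keratinocyte markers (865 CPM against 147 and 195) and mast cell markers (405 against 11.4 and 43.3), whose part in the results below was not tested.

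Transcripts of these genes were also counted outside the stroma, immune cells included. Dcn stood at 1318, 2167 and 1154 CPM in immune cells of the untreated, regressed and progressed tumor, and thinned to 1000 UMIs per cell, 41.2%, 82.6% and 45.4% of immune cells held a Dcn UMI. As a share of the stromal level, the immune level of the 9 genes was 6.15% to 11.7% in the untreated tumor and 2.45% to 9.81% in the progressed tumor. In the regressed tumor it was 5.33% to 18.7% for 8 genes and 36.6% for Fmod, whose stromal level was itself only 11.4 CPM. Levels outside the stroma at or below these are read as background. Whether that background came from free RNA, doublets or the cells themselves was not tested.

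**Figure D1:**
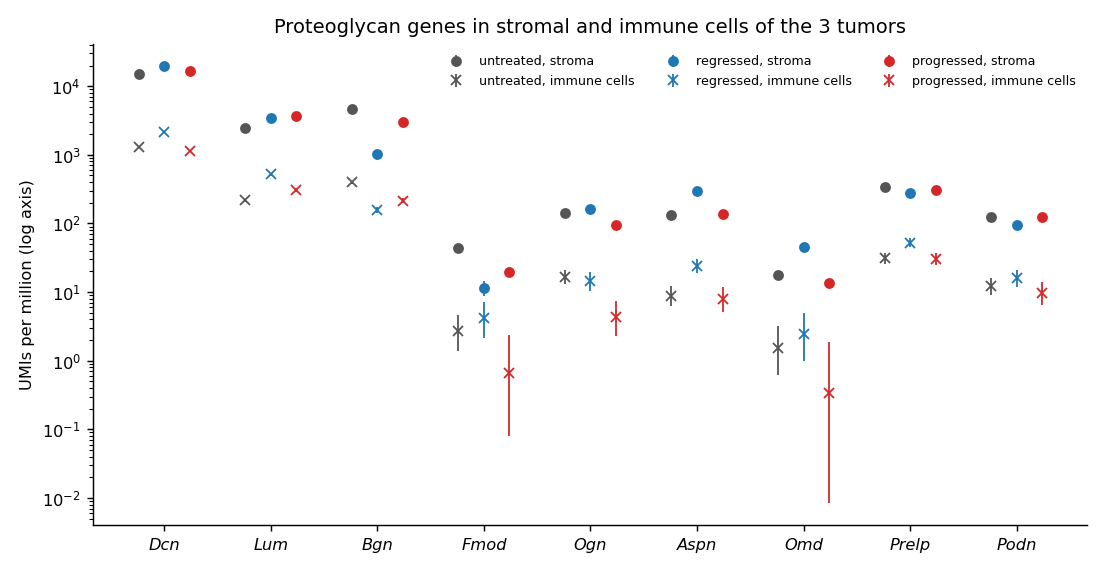
Level of each of the 9 genes in the summed stroma (circles) and in immune cells (crosses) of the 3 tumors, in CPM on a log axis, with exact Poisson 95% intervals from counting error. Dcn leads in each tumor at 14954 to 19689 CPM, Bgn is lowest in regressed stroma, and each gene's stromal circle lies above its immune cross in the same tumor.

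The genes lie in short runs on the mouse genome (GRCm38.p6). Dcn (chr10:97479500-97518163) and Lum (chr10:97565501-97572703) are 47.3 kb apart, Prelp (chr1:133910304-133930102) and Fmod (chr1:134037254-134048280) are 107 kb apart, and Aspn (chr13:49544443-49567565), Omd (chr13:49582462-49592612) and Ogn (chr13:49608015-49624501) follow each other with 14.9 and 15.4 kb between them. Bgn (chrX:73483601-73495936) and Podn (chr4:108014793-108031954) lie alone. The trio on chromosome 13 sits inside the span of Cenpp, which is read from the other strand, and reads were counted in sense orientation. Podn overlaps Scp2 on the same strand in GENCODE vM21, which leaves its count uncertain. For Bgn, the gene with the widest ratio of regressed over untreated stroma, and for the chromosome 13 trio, whose members differed unlike each other, the 250 bases before the RefSeq start of transcription are shown 5′ to 3′ on the plus strand. They are chrX:73483351-73483600 for Bgn, chr13:49544193-49544442 for Aspn, chr13:49582212-49582461 for Omd and chr13:49607765-49608014 for Ogn. Capitals mark TATAAA and GGGCGG on either strand and CANNTG, which reads the same on both.
Bgn: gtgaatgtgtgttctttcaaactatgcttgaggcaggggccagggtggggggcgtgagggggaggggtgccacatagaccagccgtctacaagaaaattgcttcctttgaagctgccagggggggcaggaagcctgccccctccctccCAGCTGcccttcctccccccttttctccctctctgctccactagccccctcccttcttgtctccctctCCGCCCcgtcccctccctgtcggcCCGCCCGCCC
Aspn: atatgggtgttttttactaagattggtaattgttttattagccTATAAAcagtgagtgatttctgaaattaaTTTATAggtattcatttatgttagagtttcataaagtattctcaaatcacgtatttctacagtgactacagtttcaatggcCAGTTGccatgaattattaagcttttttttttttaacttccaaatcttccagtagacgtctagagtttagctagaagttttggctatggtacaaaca
Omd: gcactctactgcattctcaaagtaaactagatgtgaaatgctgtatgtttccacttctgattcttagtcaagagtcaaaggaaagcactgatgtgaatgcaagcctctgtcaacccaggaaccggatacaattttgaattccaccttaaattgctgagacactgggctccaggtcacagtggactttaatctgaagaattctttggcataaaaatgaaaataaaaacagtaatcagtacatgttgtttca
Ogn: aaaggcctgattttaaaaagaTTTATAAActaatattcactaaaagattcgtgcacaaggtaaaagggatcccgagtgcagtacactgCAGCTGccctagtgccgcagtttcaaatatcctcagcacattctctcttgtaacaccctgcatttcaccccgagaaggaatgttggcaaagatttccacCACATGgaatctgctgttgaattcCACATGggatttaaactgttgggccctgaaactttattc

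The Bgn window was 64.4% G or C and held GGGCGG 3 times on the minus strand, with 2 of them overlapping at its end, and 1 CANNTG. The Aspn window had the lowest G or C share of the 4, with TATAAA on each strand and 1 CANNTG. The Ogn window, at 42.0%, had TATAAA on each strand, overlapping each other, and 3 CANNTG. In the Omd window, at 38.4%, none of the 3 motifs was found. Among 32851 RefSeq promoter windows of the same length, 12.4% held TATAAA, 32.7% GGGCGG and 66.2% CANNTG, and the median G or C share was 52.4%. The 3 neighbours on chromosome 13 thus do not share a motif set, and a match is a stretch of letters, not a shown binding site. Of the 9 genes, 7 were in the promoter table; Dcn and Lum are named only.

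Across the summed stroma, 2 of the 9 genes were at least 2-fold higher in regressed than in untreated stroma (Aspn and Omd), where 10.3% of 12810 features were, and 2 were at least 2-fold lower (Bgn and Fmod), where 6.17% of features were. Between the progressed and the regressed tumor 1 gene was at least 2-fold higher (Bgn), against 4.43% of 12891 features, and 2 were at least 2-fold lower (Aspn and Omd), against 11.9%. Between the progressed and the untreated tumor none was at least 2-fold higher, against 2.75% of 13183 features, and 1 was lower (Fmod), against 3.94%. Features with at least 50 UMIs over both tumors were compared. The median log2 ratio of the 9 genes was 0.20, 0.080 and −0.12 in these pairs, and that of all features was 0.12, −0.16 and −0.045. The 3 pairs share tumors, so they are not separate evidence.

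**Figure D2:**
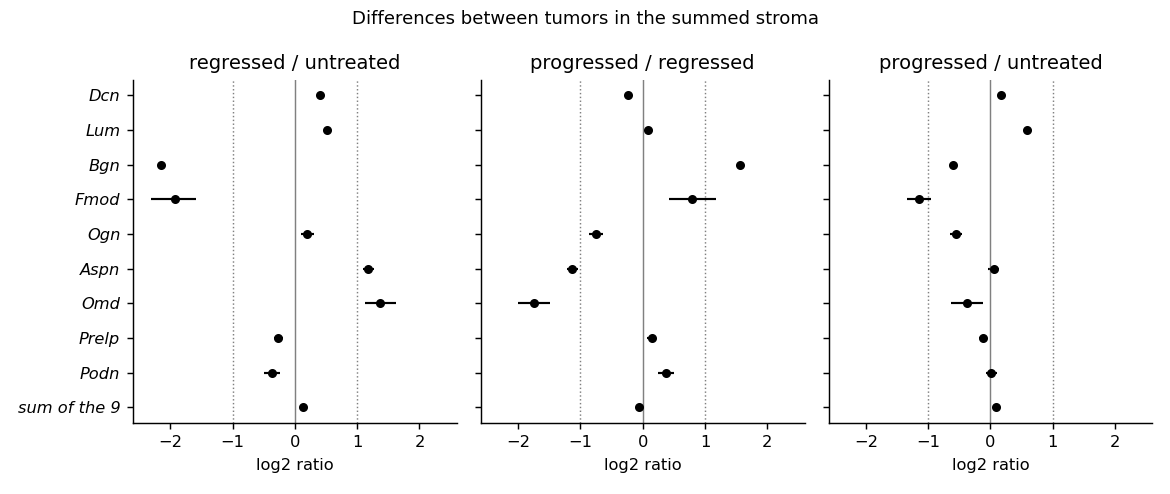
Log2 ratio of each of the 9 genes and of their sum in the summed stroma for the 3 pairs of tumors, with exact conditional binomial 95% intervals (counting error). Dotted lines mark 2-fold. Bgn and Fmod lie left of the line for regressed over untreated, at −2.16 and −1.93, and Aspn and Omd lie right of it, at 1.18 and 1.37.

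Decorin, which limits the width of collagen fibrils, was the most abundant of the 9 in every Stroma cluster with at least 10 cells. Each count is 1 captured 3′ end, so levels are not scaled by transcript length. Dcn was 14954 CPM in untreated stroma, 19689 in regressed stroma and 16783 in progressed stroma. The regressed tumor was the highest by a log2 ratio of 0.40 (0.39 to 0.41) over untreated, and the progressed tumor was above untreated by 0.17 (0.16 to 0.18). The ratio of progressed over regressed was −0.23 and turns to a positive one with TMM or DESeq2 scaling (0.075 and 0.057). Thinned to 1000 UMIs, 99.4% to 99.7% of stromal cells held a Dcn UMI, with a median of 13 UMIs per cell in untreated stroma, 18 in regressed stroma and 13 in progressed stroma.

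Among clusters, Dcn stood out in Stroma7. It reached 36846 CPM in the 444 progressed cells and 27852 in 18 untreated cells of Stroma7, and between 9413 and 17369 in the other clusters of these 2 tumors with at least 20 cells. Stroma7 cells of the progressed tumor held a median of 31 Dcn UMIs of 1000, and they were 13.0% of its stromal cells and carried 22.7% of its stromal Dcn UMIs. Lumican, a keratan sulfate proteoglycan that keeps collagen fibrils evenly spaced, was highest in the same cells at 6388 CPM.

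Stromal Lum was 2446 CPM in untreated stroma, 3494 in regressed stroma and 3692 in progressed stroma. It was higher than untreated in both treated tumors, by 0.51 (0.49 to 0.54) and 0.59 (0.58 to 0.61), while the treated tumors differed by 0.080 (0.058 to 0.10). Its second highest cluster was Stroma5, with 4060 CPM in untreated and 4533 in progressed cells. With 165 untreated and 754 progressed cells, Stroma5 gave 15.5% and 38.6% of the stromal Lum UMIs of these tumors. Within clusters, Lum was higher in progressed than in untreated cells in 5 of 6 clusters, in 4 of them with an interval above 0, from 0.16 in Stroma5 to 0.69 in Stroma6.

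Biglycan, the closest relative of decorin and a ligand of Toll-like receptors when released from matrix, had the widest ratio of regressed over untreated stroma. Its stromal level of 4619 CPM in the untreated tumor compared with 1036 in the regressed tumor, a log2 ratio of −2.16 (−2.19 to −2.12), and with 3045 in the progressed tumor. The progressed tumor was thus above the regressed tumor by 1.56 (1.52 to 1.59) and below the untreated tumor by −0.60 (−0.62 to −0.58). With Stroma10 left out the regressed level stays more than 2-fold under untreated (−1.49), but the progressed over regressed ratio is 0.89. Thinned to 1000 UMIs, a Bgn UMI was found in 93.9% (untreated), 57.1% (regressed) and 86.5% (progressed) of stromal cells. In Stroma4, the only cluster with 20 cells in all 3 tumors, Bgn was 3041 CPM in untreated, 1010 in regressed and 2478 in progressed cells. The regressed value there rests on 25 UMIs in 20 cells, and its ratio to untreated was −1.59 (−2.22 to −1.03).

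Between the untreated and the progressed tumor Bgn was lower in progressed cells in each of 6 clusters, with every interval below 0. The log2 ratio was −0.24 in Stroma2, −0.41 in Stroma3, −0.30 in Stroma4, −0.69 in Stroma5, −0.071 in Stroma6 and −0.61 in Stroma8. Among 973 features with at least 50 UMIs in each of these clusters, 3.8% were lower in this way and 0.822% were higher, and Bgn was the only one of the 5 members so compared to do either. These counts hold for CPM. TMM and DESeq2 factors of the summed stroma shift ratios of this pair by 0.060 and 0.072. Either shift brings the Bgn ratio in Stroma6 next to 0, so its place below 0 in all 6 clusters depends on the scaling. Across clusters, Bgn was highest in untreated Stroma2 (5947 CPM) and in Stroma6 (5285 untreated, 5030 progressed). It was lowest in Stroma8 in all 3 tumors, at 1330 in untreated, 488 in regressed (18 cells) and 873 in progressed cells, and Stroma10 was at 841.

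Bgn is X-linked, and the libraries differed in Xist, the RNA of the inactive X. Stromal Xist was 1769 CPM in the untreated and 1841 in the progressed tumor, and 0 of 6424698 UMIs in the regressed tumor, which allows up to 0.467 CPM. The median log2 ratio of 399 X-linked features in stroma, regressed over untreated, was 0.22, against 0.12 over all 12810 features, and 6.52% of the X-linked ones were at least 2-fold lower. The part of the X chromosome in the Bgn difference was not tested.

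Set against decorin in the same cells, which cancels the total, there were 30.9 Bgn UMIs per 100 Dcn UMIs in untreated stroma (30.6 to 31.2), 5.26 in regressed stroma (5.13 to 5.39) and 18.1 in progressed stroma (18.0 to 18.3). Immune cells gave 30.3 (28.7 to 31.9) and 18.6 (17.1 to 20.3) in the untreated and progressed tumors, intervals that hold their own stroma's ratio, and 7.22 (6.55 to 7.95) in the regressed tumor, above it. Tumor cells were higher: they held 63.1, 46.8 and 105 Bgn UMIs per 100 Dcn. In CPM, Bgn in tumor cells was 1034, 745 and 1190, that is 2.59, 4.76 and 5.53 times the immune level of the same tumor, while Dcn in tumor cells was 1.24, 0.734 and 0.978 times it. In the authors' Bloodvessel cluster of the untreated tumor Bgn stood at 973 CPM with 198 UMIs per 100 Dcn, and in regressed and progressed vessel cells at 345 and 318 CPM. The tumor cells' Bgn was thus above the immune level in all 3 tumors. Bgn was not alone in this: Prelp in tumor cells was 2.33, 1.75 and 2.10 times the immune level, from 19, 55 and 54 UMIs. For Bgn the regressed tumor was lowest in tumor cells too, but the span of 745 to 1190 CPM was narrower than the stroma's 1036 to 4619. Of the 410 regressed tumor cells 349 were in the authors' Tumor2 cluster, which held 4 cells of each other tumor. Tumor and cluster can thus not be told apart there either. The regressed tumor cells had a median of 832 UMIs, against 4078 in untreated and 4656 in progressed tumor cells.

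**Figure D3:**
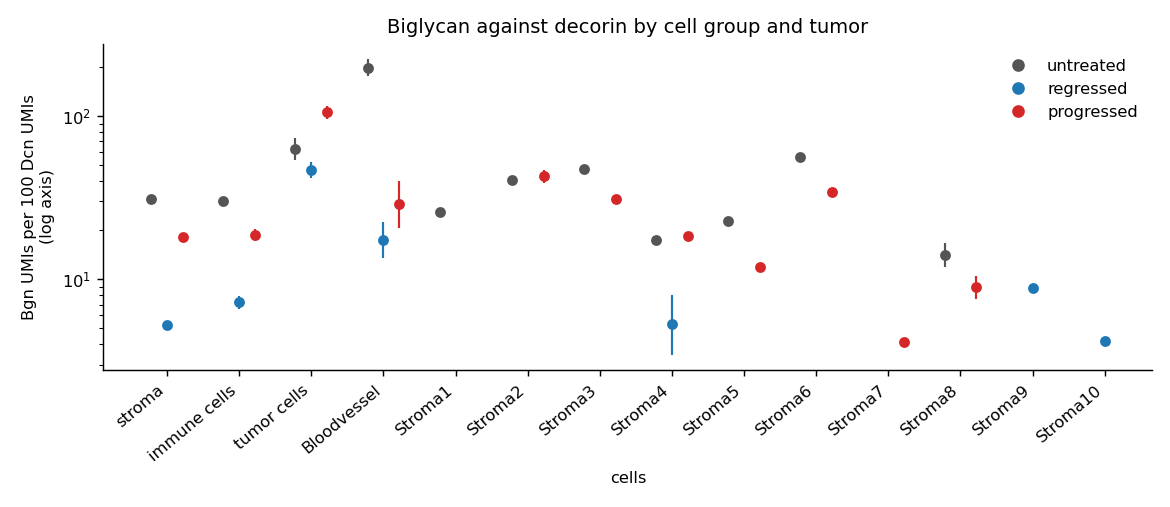
Bgn UMIs per 100 Dcn UMIs (log axis) in the summed stroma, immune cells, tumor cells, vessel cells and each Stroma cluster with at least 20 cells, colored by tumor, with 95% intervals from counting error. Untreated immune cells sit beside their stroma (30.3 and 30.9), regressed immune cells above theirs (7.22 and 5.26), and tumor cells above both in each tumor.

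Asporin, an aspartate-rich relative of decorin that binds collagen and TGF-β, went the other way from biglycan. Aspn was 131 CPM in untreated stroma, 297 in regressed stroma and 135 in progressed stroma. The regressed tumor was above untreated by 1.18 (1.09 to 1.27) and the progressed tumor was below regressed by −1.13 (−1.22 to −1.05), and the outer pair was level (0.049, −0.039 to 0.14). TMM and DESeq2 scaling bring the first ratio to 0.94 and 0.97 and the second to −0.83 and −0.84, under 2-fold. Regressed clusters with at least 10 cells ranged from 265 CPM in Stroma8 to 444 in Stroma4, whereas untreated clusters of that size ranged from 59.2 in Stroma3 to 244 in Stroma7. Progressed clusters with at least 20 cells ranged from 73.6 in Stroma8 to 251 in Stroma4. In 26.6% of Stroma9 and 23.4% of Stroma10 cells an Aspn UMI was found after thinning, against 10.9% of all progressed stromal cells. Single progressed clusters came closer: in Stroma4 the share was 26.2% of 61 cells with an Ogn UMI and 19.4% of 753 cells without.

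Osteomodulin, a collagen-binding keratan sulfate proteoglycan best known from bone and tooth, is the next gene on chromosome 13 and the rarest of the 9 in the untreated and progressed tumors. Omd was 17.6 CPM in untreated stroma (248 UMIs), 45.4 in regressed stroma (292 UMIs) and 13.6 in progressed stroma (239 UMIs). The regressed tumor was above untreated by 1.37 (1.12 to 1.62) and the progressed below regressed by −1.74 (−1.99 to −1.49). Both ratios rest on Stroma10, which gave 90.1% of the regressed Omd UMIs at 54.1 CPM. Without it they are 0.070 and −0.44, and Stroma9, also regressed, was at 17.4. In the untreated and progressed tumors the leading cluster was Stroma4, with 47.8 and 30.3 CPM and 49.6% and 46.4% of the Omd UMIs. Among clusters with at least 20 cells, Aspn and Omd therefore both led in Stroma4 in these tumors, but only Aspn was high in both regressed clusters. Markers of tendon, cartilage and bone summed to 67.3, 107 and 118 CPM in the stroma of the 3 tumors, with Bglap at 0 in each, Acan at 0 in the untreated and regressed and Scx at 0 in the progressed stroma. Their part in the Omd result was not tested.

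Osteoglycin, the last of the trio and a small proteoglycan of fibrous tissue and bone, passed 2-fold in no pair, unlike its neighbours. Its level was 140 CPM in untreated stroma, 161 in regressed stroma and 95.7 in progressed stroma, and the regressed over untreated ratio of 0.20 changes sign with TMM or DESeq2 scaling (−0.044 and −0.014). Progressed over regressed it was −0.75 (−0.87 to −0.64), in the direction of Aspn and Omd, and −1.01 without Stroma10. It also separated clusters. Stroma8 held 1601 CPM in 23 untreated cells, 1813 in 18 regressed cells and 1467 in 21 progressed cells, and no other cluster with at least 20 cells was above 173. Stroma8 was 0.875%, 0.938% and 0.614% of the stromal cells and carried 9.86%, 12.5% and 16.6% of the stromal Ogn UMIs. After thinning, 69.6%, 68.8% and 81.0% of its cells held an Ogn UMI, against 11.7%, 12.3% and 8.26% of all stromal cells. These clusters were built from the cells' own expression, so the contrast is a description. The untreated and progressed Stroma8 levels did not differ beyond counting error (−0.13, −0.39 to 0.15). Stroma8 was also the cluster with the least Lum in every tumor (1124, 935 and 1241 CPM).

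**Figure D4:**
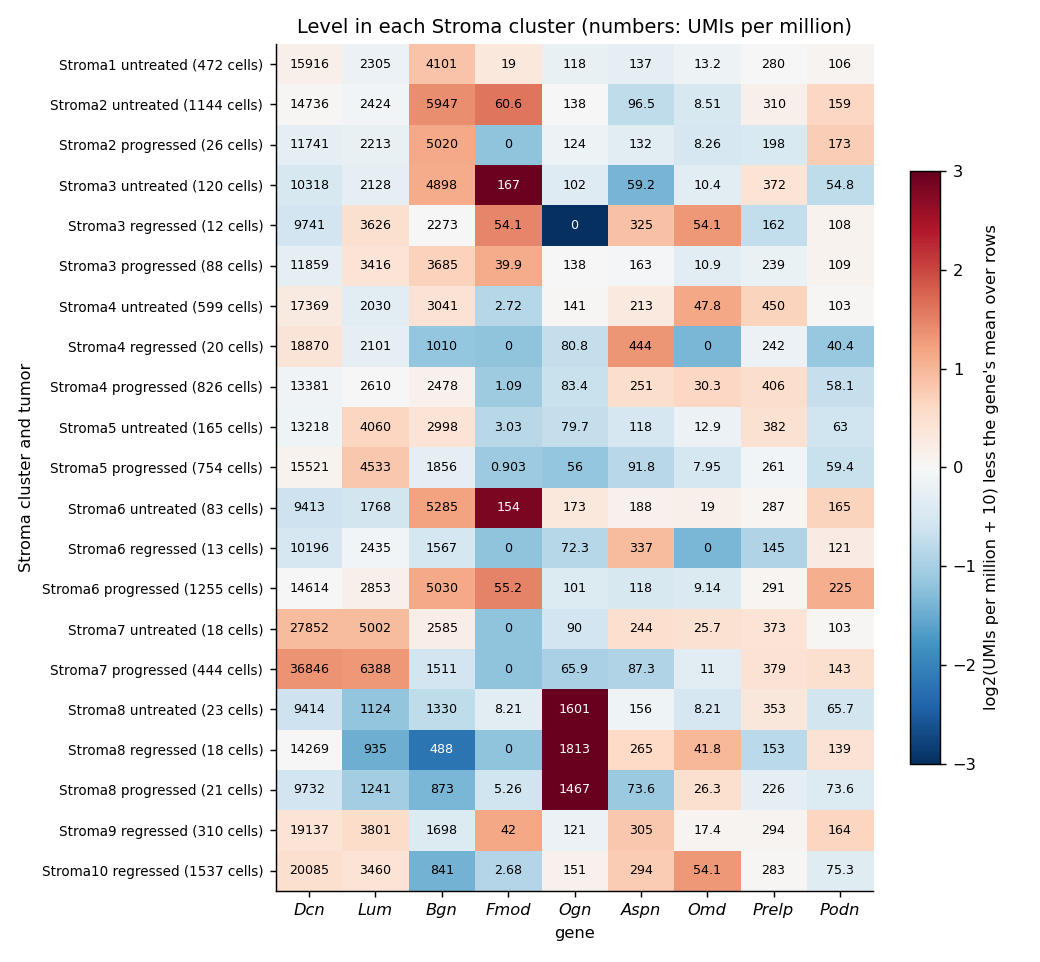
Level of the 9 genes (columns) in each Stroma cluster and tumor with at least 10 cells (rows). Printed numbers are CPM, and color is log2(CPM + 10) less the gene's mean over the rows, cut at 3 either way. The 3 Stroma8 rows carry Ogn at 1467 to 1813, Stroma7 carries the highest Dcn and Lum, and Fmod is near 0 in Stroma4, Stroma5, Stroma7 and Stroma10.

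Fibromodulin, which directs collagen cross-linking and early fibril growth, was scarce and patchy. Fmod was 43.3 CPM in untreated stroma (610 UMIs), 11.4 in regressed stroma (73 UMIs) and 19.7 in progressed stroma (346 UMIs). Against untreated it was lower by −1.93 (−2.30 to −1.58) in regressed and by −1.14 (−1.33 to −0.95) in progressed stroma. Without Stroma10 the first of these is −0.18. Since Stroma10 is nearly all regressed cells, tumor and cluster cannot be told apart there. The gene was found mainly in 4 clusters, picked here after their values were seen: Stroma2, Stroma3, Stroma6 and Stroma9 held 1347 of 2628, 336 of 1918 and 1370 of 3422 stromal cells (untreated, regressed and progressed) and 88.9%, 82.2% and 97.1% of the Fmod UMIs. Untreated levels there were 60.6 in Stroma2, 167 in Stroma3 and 154 in Stroma6, and regressed Stroma9 was at 42.0. Stroma4, Stroma5, Stroma7 and Stroma10 were at 0 to 3.03 CPM in every group of at least 20 cells.

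Within clusters Fmod was lower in progressed than in untreated cells in each of the 3 clusters with at least 20 UMIs of it. The levels were 39.9 against 167 CPM in Stroma3, a log2 ratio of −2.07 (−2.80 to −1.40), and 55.2 against 154 in Stroma6, −1.48 (−1.85 to −1.09). In Stroma2 there were 0 UMIs in 26 progressed cells, and the floor of 3 UMIs puts that level at least 2.45-fold lower than the untreated 60.6. Few cells carried the transcript even where it was high: after thinning, 15.4% of untreated Stroma3 cells, 14.8% of untreated Stroma6 cells and 4.96% of progressed Stroma6 cells. Cells with an Fmod UMI differed from the others in no common direction in Dcn and Bgn. In untreated Stroma2, 48 cells with Fmod had a mean of 13.8 Dcn and 6.88 Bgn UMIs of 1000 and 1085 without had 14.5 and 5.75. In progressed Stroma6, 62 cells with Fmod had 19.6 and 4.74 and 1187 without had 14.7 and 4.82. Prelp was found in 37.5% of cells with Fmod and 24.8% without in the first cluster and in 35.5% and 27.6% in the second, and Ogn in 16.7% and 12.0%, then 16.1% and 8.76%. Fmod was also counted in tumor cells, with 14 UMIs in regressed and 24 in progressed ones (23.5 and 28.6 CPM, above the stromal 11.4 and 19.7, with intervals that overlap the stromal ones in both tumors). These UMIs came from 1.22% of 410 and 6.25% of 160 cells, and doublets were not called. The immune cells of these tumors were at 4.16 and 0.665 CPM, and the 48 untreated tumor cells held 0 Fmod UMIs, which allows up to 11.4 CPM.

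Prelp, a basic proteoglycan that binds collagen and the heparan sulfate of basement membranes, passed 2-fold in no pair. Prelp was 339 CPM in untreated stroma, 282 in regressed stroma and 312 in progressed stroma, and it was found in 28.2%, 24.4% and 29.4% of stromal cells after thinning. It was highest in Stroma4, at 450 untreated and 406 progressed, only 1.61-fold and 2.05-fold above the lowest cluster of the same tumor. Within clusters it was lower in progressed cells in 5 of 6, in 4 of them with an interval below 0, by up to −0.65 in Stroma2. Its immune level was 30.9, 52.6 and 30.6 CPM, and its tumor-cell level was above that, at 72.0, 92.3 and 64.3 CPM.

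Podocan, which has been linked to smooth muscle growth, was 123 CPM in untreated stroma, 95.4 in regressed stroma and 124 in progressed stroma. Its highest cluster was progressed Stroma6 at 225, with 165 in untreated Stroma6 and 164 in regressed Stroma9, and the lowest were Stroma3 in the untreated (54.8) and Stroma4 in the progressed tumor (58.1). From untreated to progressed it was lower in Stroma4 by −0.83 (−1.09 to −0.56) and higher in Stroma3 by 0.99 (0.37 to 1.62) and in Stroma6 by 0.45 (0.12 to 0.80), so that the level sum of 123 and 124 covers differences of both signs. Reads shared with Scp2 were not told apart.

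**Figure D5:**
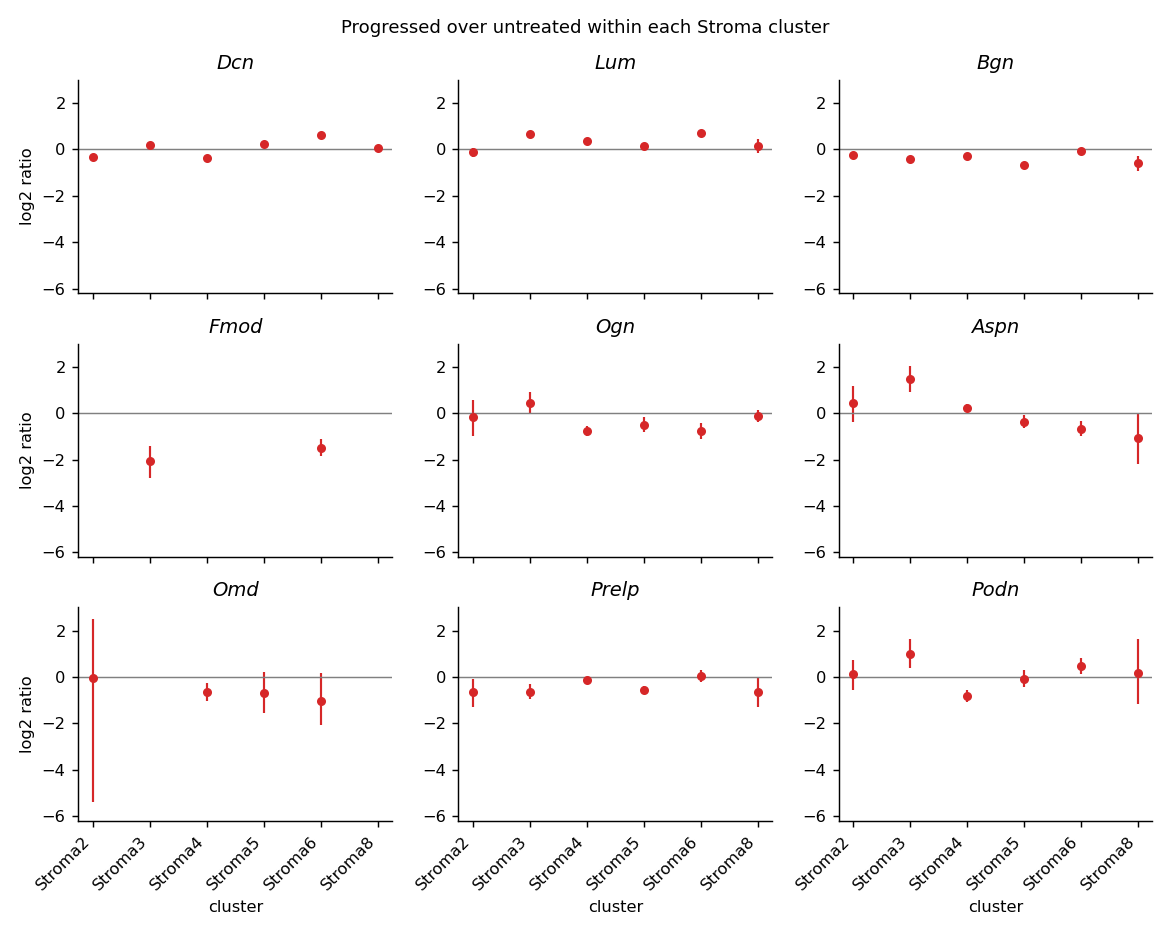
Log2 ratio of progressed over untreated within each Stroma cluster that has at least 20 cells of both tumors and 20 UMIs of the gene, 1 panel a gene, with exact conditional binomial 95% intervals (counting error). Clusters with 0 UMIs in 1 tumor are left out. In CPM Bgn lies below 0 in all 6 clusters, in Stroma6 by only −0.071. Fmod lies below 0 in both clusters shown, and Aspn runs from 1.46 in Stroma3 to −1.08 in Stroma8.

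As shares of the 9 genes' own UMIs, Dcn was 65.5% of the untreated, 78.4% of the regressed and 69.3% of the progressed stroma, Bgn was 20.2%, 4.13% and 12.6%, and Lum was 10.7%, 13.9% and 15.2%. In the immune cells Bgn was 19.9% (19.1 to 20.7), 5.29% (4.82 to 5.78) and 12.4% (11.5 to 13.4), with only the regressed share apart from its stroma beyond counting error. Lum in immune cells was 10.8%, 17.6% and 17.7%, above the stromal share in both treated tumors. A stromal cell thinned to 1000 UMIs held a median of 3 of the 9 genes in each tumor. The sum of the 9 differed between tumors by log2 ratios of 0.14 (regressed over untreated), −0.052 (progressed over regressed) and 0.086 (progressed over untreated), and the first and second of these change sign with TMM or DESeq2 scaling.

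How alike the genes were across cells was described by Pearson's r of log2(CPM + 10) over 53 cluster and tumor groups of at least 20 cells. These groups share libraries and differ in depth, and r is mostly the split of stroma from other cells. Among 12929 features with at least 200 UMIs, the gene most like Dcn was Lum (r = 0.97), then Srpx and Pcolce, the enhancer of procollagen C-proteinase, and those most like Lum were Dcn, Srpx and Serpinf1. For Bgn they were Nnmt, Sparc and Fstl1 (0.90 to 0.91), where Sparc is a collagen-binding matrix protein. For Aspn they were Lama2, Pcdh19 and Cdh11 (0.91 to 0.92), for Ogn Igsf10, Dpep1 and En1 (0.87 to 0.88), for Prelp Pcolce, Dcn and Mfap5, and for Podn Colec12, Dpep1 and Pdgfrl. Fmod and Omd had no feature above 0.81 and 0.79, led by 4833422C13Rik and Cdkn1c. Over the 17 Stroma groups alone, Dcn and Lum had r = 0.72, Bgn and Fmod 0.60, Bgn and Podn 0.52, Lum and Ogn −0.76, and the neighbours Aspn and Omd 0.17, Omd and Ogn 0.16 and Prelp and Fmod 0.02.

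Related genes were taken from lists, given here by their counts at 2-fold in the summed stroma, to be read beside the shares of all features: 10.3% higher and 6.17% lower for regressed against untreated, 4.43% and 11.9% for progressed against regressed, and 2.75% and 3.94% for progressed against untreated. Of 8 other genes of the family, 2 or 3 had enough UMIs to compare. Ecm2, which lies 11.7 kb before Aspn on chromosome 13, was 171 CPM in untreated stroma, 518 in regressed stroma and 162 in progressed stroma, a ratio of 1.60 and then −1.68. Aspn, Omd and Ogn also had their highest CPM in regressed stroma, but Ecm2 was named here because it passed 2-fold. Omd was past 2-fold only with Stroma10. Ogn was higher by less than 2-fold over either other tumor and, with TMM or DESeq2 scaling, not over untreated stroma. The share of all features that were highest in regressed stroma was not counted. The order shared by these genes is thus not read as a trait of the row. The median log2 ratio of all features was 0.12 for regressed over untreated and −0.16 for progressed over regressed. Epyc, beyond Lum on chromosome 10, was 2.62 CPM in progressed stroma against 0.640 and 0.623. Of the enzymes that build the sulfated chains, 25 to 27 of 30 were compared. Chsy1, a chondroitin synthase, was 39.4 CPM in untreated, 28.2 in regressed and 81.3 in progressed stroma, and Ugdh, which makes the UDP-glucuronate for these chains, was higher in progressed than in regressed stroma by 1.12. Csgalnact1 was lower (−1.49) and Ust higher (1.24) in regressed than in untreated stroma, and no other of the list passed 2-fold in any pair.

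Of the 22 collagens, matrix proteins and growth factors that the family binds, 1 was at least 2-fold higher and 4 lower in regressed than in untreated stroma, 5 were higher and none lower in progressed than in regressed stroma, and 3 were higher and none lower in progressed than in untreated stroma. Of all features 10.3% were higher and 6.17% lower in the first pair, 4.43% and 11.9% in the second and 2.75% and 3.94% in the third. Col12a1 and Col14a1, collagens of the fibril surface, were lowest in regressed stroma: Col14a1 was 201, 60.9 and 309 CPM and Col12a1 97.8, 18.2 and 58.0. Thbs1 was 543 CPM in progressed stroma against 232 in untreated and 125 in regressed stroma. The fibril collagen Col1a2 was 10686, 5344 and 10205 CPM, an order that Bgn shared and Dcn did not. Of 10 receptors compared, 2 were higher and none lower in regressed than in untreated stroma, against 10.3% and 6.17% of all features. The 2 were Tlr2 and P2rx7. In progressed against regressed stroma 1 was higher and 3 lower (Cd14, Tlr2 and P2rx7), against 4.43% and 11.9%. Cd14 alone was lower in progressed than in untreated stroma, against 3.94%. Cd14, Tlr2 and P2rx7 are myeloid genes too, and summed macrophage markers in stroma were 38.1, 151 and 44.0 CPM, a part that was not tested. Of 10 proteases and their helpers that trim or cut the family, 4 were lower and 1 higher in regressed than in untreated stroma, against 6.17% and 10.3% of all features. Adamts1 (395, 149 and 362 CPM) and Adamts4 (25.7 in untreated, 9.49 in regressed) were among the lower ones, and Pcolce2 was the higher one. Adamts5 was 339 CPM in untreated, 166 in regressed and 101 in progressed stroma. Of 13 other proteoglycans none passed 2-fold between regressed and untreated stroma, and 2, Srgn and Prg4, were lower in progressed stroma than in both other tumors. Srgn is a proteoglycan of blood cell granules, and neutrophil markers in stroma summed to 651, 437 and 4.78 CPM, a part that was not tested.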

How the data were processed

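Single-cell suspensions of 3 tumors had been run on the Chromium 3′ v2 kit. Per the study's methods and the submitters' notes, the authors aligned reads to GRCm38 with GSNAP, counted UMIs of uniquely mapped reads on exons in sense orientation, left out cells under a minimum of 300 UMIs and named clusters after clustering with Seurat 2.2.0. The deposited tables hold these UMI counts per Entrez gene and cell; the lowest total in the deposited cell table was 309. Table sums exceeded the deposited totals per cell by 5.02%. Of 36530 features, 31049 matched a symbol. Barcodes are not in the cell names, and 0 names were shared between libraries. Doublets were not called.

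Counts were summed per cluster and tumor and divided by the summed total (CPM). Stroma is Stroma1 to Stroma10, tumor cells are Tumor1 and Tumor2, and immune cells are the 7 myeloid, mast and lymphoid clusters. Intervals are exact Poisson for levels, exact binomial (Clopper-Pearson) for shares and conditional binomial for ratios, at 95%. A count of 0 was set to a floor of 3 UMIs in a ratio. A difference was called at 2-fold over features with at least 50 UMIs in both tumors together, and compared within clusters with at least 20 cells of both. Ratio intervals were tested on simulated Poisson counts, the model they assume, so that test says nothing of spread between cells or tumors. Cells were thinned to 1000 UMIs for shares. There is 1 tumor per group, so edgeR 4.0.16 and DESeq2 1.42.0 gave scaling factors only. Named are all 9 genes, up to 3 genes per list and pair with the widest difference past 2-fold and the 3 genes most like each member; Col1a2 and the genes of the marker lists were named beside them after their values were seen. The 9 genes and the lists were chosen with earlier results of these data known. Python 3.11.15 was used with scipy 1.17.1. Part of the genotype that all 3 tumors share is not reported here.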

Additional observations from a re-analysis of the deposited data

Results flagged for a closer look

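Asporin (Aspn) differed in opposite directions between the progressed and the untreated tumor in 2 Stroma clusters. In Stroma3 the log2 ratio was 1.46 (0.91 to 2.04), from 90 UMIs in 88 progressed cells and 40 in 120 untreated cells, or 163 against 59.2 CPM. In Stroma8 it was −1.08 (−2.19 to −0.01), from 14 UMIs in 21 cells and 19 in 23 cells, or 73.6 against 156 CPM. The second interval ends next to 0, the intervals cover counting error only, and the difference between the clusters was not tested over tumors, since each group is 1 tumor.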

How the results depend on the processing

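The sum of the 9 genes in stroma did not stay on 1 side of 0, and both ratios against the regressed tumor moved most when Dcn was left out. For regressed over untreated (0.14), the log2 ratio was −0.11 with TMM factors, −0.076 with DESeq2 size factors, 0.12 with deposited totals, 0.099 with thinned cells, 0.10 without the deepest cells, 0.032 with equal weight per cell, −0.018 over the 4 clusters that held 10 cells or more of each tumor, 0.11 without Stroma10, 0.090 less the immune level, −0.54 without Dcn and 0.20 as the members' median. In the same order, progressed over regressed (−0.052) became 0.25 and 0.24, then 0.016 with thinned cells, −0.020 without the deepest cells, 0.069 with equal weights per cell, 0.075 over shared clusters, −0.027 without Stroma10, 0.022 less the immune level, 0.46 without Dcn and 0.080 as the median. Progressed over untreated (0.086) became 0.15 with TMM, 0.16 with DESeq2, 0.076 with deposited totals, 0.12 thinned, 0.10 per cell, 0.057 over shared clusters, 0.11 less the immune level, −0.079 without Dcn and −0.12 as the median. TMM shifts every regressed over untreated ratio by −0.25 and every progressed over regressed ratio by 0.31. Leaving out haemoglobin genes moved none of the 3 sums beyond its interval. Leaving out Stroma10 and subtracting the immune level from the counts of genes was added after seeing the data.

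Of the 8 ratios of single genes past 2-fold, all kept their sign under all 10 alternatives, some of them only barely. Bgn in regressed over untreated stroma (−2.40 to −1.45) and Fmod in progressed over untreated stroma (−1.71 to −1.003) also stayed past 2-fold. The other 6 lost 2-fold under 1 or 2 alternatives: both Aspn ratios with TMM or DESeq2 scaling, both Omd ratios over shared clusters or without Stroma10, and Fmod (regressed over untreated) and Bgn (progressed over regressed) without Stroma10. Little was left of some: for regressed over untreated, Omd was 0.17 over shared clusters and 0.070 without Stroma10, and Fmod was −0.18 without Stroma10. The kept sign says little in those cases. The number of genes at least 2-fold higher in regressed than in untreated stroma (2) was 0 at 3-fold, and 1 with TMM and 1 without Stroma10, and the number lower (2) was 1 without Stroma10. For progressed against regressed, the number higher (1) was 2 at 1.5-fold, 0 at 3-fold, 2 with TMM, 0 without Stroma10 and 2 less the immune level, and the number lower (2) was 3 at 1.5-fold, 1 at 3-fold and 1 with TMM, and 2 without Stroma10, where Ogn (−1.01) stands in place of Omd (−0.44). For progressed against untreated, the number higher (0) was 1 at 1.5-fold and the number lower (1) was 2 at 1.5-fold and 0 at 3-fold. With no minimum beyond 1 UMI in each tumor, 22.8% of features were at least 2-fold higher in regressed than in untreated stroma, and with at least 200 UMIs 6.82% were. Of the 54 shares of cells recomputed without thinning or at 2000 UMIs, 52 moved beyond their interval. The cause was not tested for any of these. No paired analysis was possible because each group is 1 tumor and no test was made.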
